A study of Rattus norvegicus with 4 samples.

Results

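The fatty acid oxidation genes were 39 genes chosen by name: the enzymes and carriers that activate fatty acids, pass them into mitochondria and break them down there or in peroxisomes, with a few genes that set fuel choice. Probe sets carrying exactly 1 of these symbols in the platform annotation were found for 38 of the 39, out of 10411 named genes in the table. Acaa1a, the peroxisomal thiolase, was represented only through a probe set shared with Acaa1b and was given no value. Each of the 38 genes was represented by its probe set with the highest mean log2 signal over all arrays, and further probe sets of a gene are given beside it. Of the 38 genes, 33 were bright enough to be tested, and Acsl6, Acadsb, Ehhadh, Acot2 and Pdk4 were left out of the test as dim.

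Total RNA of ventricular myocytes, the beating muscle cells of the heart, cultured from neonatal rats, was hybridised to Affymetrix rat arrays. Control replicates 1 and 2 came from uncoated plates and fibronectin replicates 1 and 2 from plates coated with fibronectin, a matrix glycoprotein bound by integrins. Both groups spent 24 h in 10% serum and then 48 h without serum. Nothing in the labels ties the 2 arrays of a group to separate hearts or dishes. The p-values therefore reflect the spread among these 4 samples alone, and this spread may be technical.

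Fatty acids are first joined to coenzyme A by acyl-CoA synthetases, and long chains then cross the inner mitochondrial membrane as carnitine esters. In the matrix each round of beta-oxidation runs through a dehydrogenase, a hydratase, another dehydrogenase and a thiolase, and its electrons reach the respiratory chain partly through electron transfer flavoprotein. The adult heart draws much of its energy from this pathway, whereas the fetal heart relies more on glucose and lactate, and transcripts of the pathway are known targets of PPAR and ERR nuclear receptors.

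The arrays differed in ways that bear on every value below. Over all tested probe sets, fibronectin replicate 2 correlated at 0.775 to 0.794 with the other arrays, which correlated at 0.847 to 0.910 with each other. The 3' to 5' signal ratio of the Gapdh control transcript, a sign of RNA integrity, was 1.64 and 1.15 on the controls and 6.02 and 3.52 on fibronectin, and that of beta-actin was 1.46 and 1.40 against 13.0 and 6.29. That of hexokinase did not separate the groups, at 3.77 and 4.12 on the controls and 3.11 and 7.0 on fibronectin. The sums of marker signals below are of quantile normalized values brought back to the linear scale, and they depend on that scaling. Of 12 ventricular myocyte markers 11 were found, and their summed signal was 79254 to 81167 on the controls and 81156 to 83820 on fibronectin. Quantile normalization gives every array the same set of values, so sums of very bright genes are held close together. Without normalization both fibronectin sums lay above both control sums. Myl2, for example, was deposited at 11552 and 10860 on the controls and 15655 and 32283 on fibronectin. Ttn went the other way, at 2015 and 3121 against 1348 and 1845. The log2 differences were -0.92 for Ttn, 0.41 for Myl3 and 0.40 for Tnnc1, and -0.67, 1.02 and 1.16 without normalization. All 12 fibroblast markers were found and were summed to 41757 to 56535 on the controls and 31260 to 41675 on fibronectin. Without normalization these sums overlapped, and that of fibronectin replicate 2 was the highest, so the direction of the sum depends on the scaling. S100a4, for example, was deposited at 7129 and 5995 on the controls and 14304 and 14953 on fibronectin. Col1a1 was deposited at 9042 and 12580 against 8958 and 11868. After normalization, 6 of the 12 markers were lower without overlap (17.2% of all named genes), led by Dcn (-1.57), Ogn (-1.56) and Postn (-0.93). Without normalization Dcn, Ogn and Postn differed by -1.50, -1.49 and -0.72. Only 1 fibroblast marker, S100a4 (0.51), was higher without overlap (20.6% of all named genes). The 12 leukocyte markers summed to 2603 to 3384 and 1808 to 2316, and 9 of them were tested. Of these 9, 7 had a lower and 2 a higher mean on fibronectin. Without overlap 4 were lower and 0 higher (17.2% and 20.6% of all named genes), led by Aif1 (-1.80), Cd53 (-1.28) and Fcer1g (-0.74). The 6 smooth muscle markers found summed to 6499 to 11557 and 7506 to 9955, with Cnn1 at 1.09, Myh11 at -0.31 and Des at 0.23. The 8 endothelial markers found summed to 606 to 860 and 512 to 832, and the 3 erythroid ones to 290 to 405 and 361 to 445. The 4 brown adipocyte markers found summed to 542 to 815 and 560 to 650. Ucp1, the defining gene of that cell type, was above the floor on the controls only, at 5.46 and 5.10, and was too dim to be tested. Cidea, the 1 marker of this list that was tested, overlapped, with a difference of -0.15. Of the other dim markers, Plin1 was higher on fibronectin without overlap and Fabp4 overlapped. None of these markers was at the floor on all 4 arrays. The part of RNA integrity and of other cells in the results was not tested, and in bulk samples fewer cells of a type and less RNA per cell cannot be told apart.

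As a group the fatty acid oxidation genes had no common direction. Of the 33 tested genes, 19 had a lower and 14 a higher mean on fibronectin, with a median log2 difference of -0.09, against a median of 0.02 and 48.6% of 7102 named genes lower. In limma's test with Benjamini-Hochberg adjustment over 9520 probe sets 0 genes passed 0.05, as for all probe sets (0%), and the lowest adjusted p among them was 0.575. By the brightest probe set of each gene, Hadh, Etfdh and Ech1, 3 genes or 9.09%, had an unadjusted p under 0.05, as had 5.67% of all named genes. The dimmer probe set of Cpt1a, not counted here, had an unadjusted p of 0.0026 in limma's test. The fibronectin values were both below the control values for 8 genes, or 24.2% (17.2% of all named genes), and both above for 4, or 12.1% (20.6%). Where the deposited values were used with no normalization, the split was 5 lower and 5 higher, where 10.5% of all named genes were lower and 22% higher. With 1 array left out overlap is rarer by construction, for all genes as for these. Without control replicate 2 the number lower was 19 of 33, or 57.6% (30.8% of all named genes), and without fibronectin replicate 1 it was 17, or 51.5% (39.3%). The number lower was 12, or 36.4% (32.5%), without fibronectin replicate 2. It was 8, or 24.2%, without control replicate 1, below the 27.5% of all named genes. Without control replicate 1 the number higher was 10, or 30.3% (33.5%), and without control replicate 2 it was 6, or 18.2% (32.5%). It was 9, or 27.3%, without fibronectin replicate 1 (40.8%) and without fibronectin replicate 2 (38.7%).

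The gaps between arrays of one group were similar in size to the differences between the groups. Control replicates 1 and 2 differed from each other by more than the groups did for 16 of the 33 genes, against 3343 of 7102 named genes. The fibronectin arrays did so for 16 of the 33, against 4553 of 7102. The median size of the group difference was 0.42 on the log2 scale, and the median gap between the controls was 0.44. Relative to each gene's control mean, the median over the 33 genes was 0.22 and -0.22 on the controls, 0.02 on fibronectin replicate 1 and -0.23 on fibronectin replicate 2. Fibronectin replicate 2 had the lowest of the 4 values for 13 of the 33 genes and the highest for 7. Among the 7102 named genes it was lowest for 2357 and highest for 2331.

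**Figure D1:**
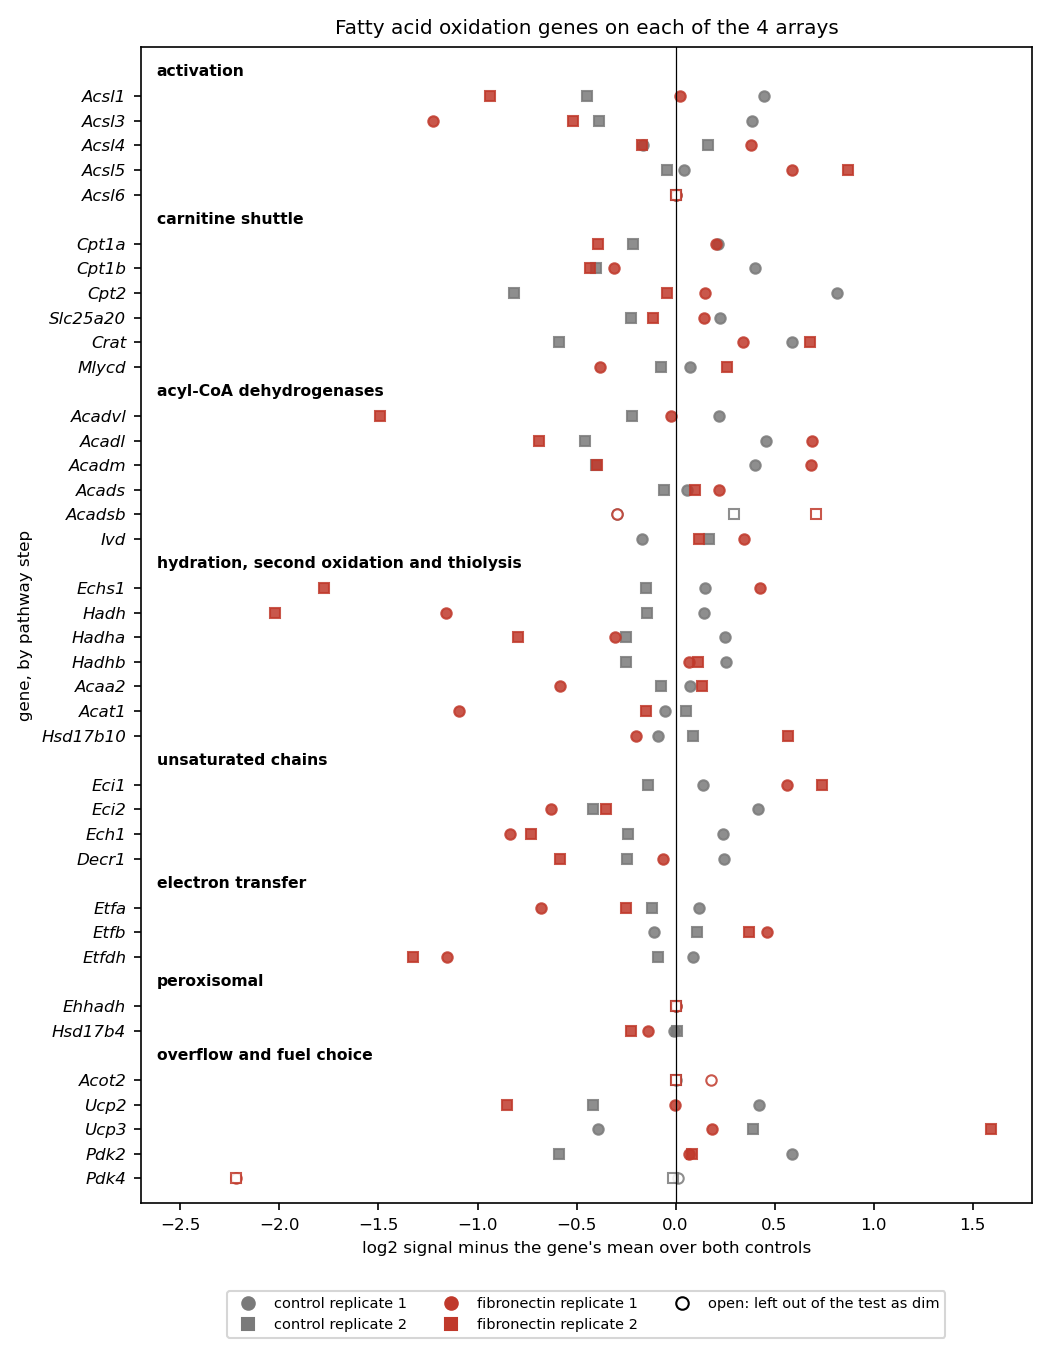
Log2 signal of each of the 38 genes minus its mean over both controls (horizontal axis), by pathway step (vertical axis); each point is 1 array, grey for control and red for fibronectin, and open points are genes left out of the test as dim. Control points lie apart by a median of 0.44, and the red points fall on both sides of 0, farthest to the left for Pdk4, Hadh and Echs1.

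Activation. The acyl-CoA synthetases did not share a direction. Acsl5, a synthetase of long-chain fatty acids, had log2 signals of 8.49 and 8.40 on the controls and 9.03 and 9.31 on fibronectin. Both fibronectin values lay above both controls, a 1.66-fold higher mean with a difference of 0.73 (SE 0.32, limma's Benjamini-Hochberg adjusted p = 0.762). Acsl3, a synthetase linked to lipid droplets, read 8.71 and 7.94 on the controls and 7.10 and 7.81 on fibronectin. The groups were separate by a narrow margin, and the difference was -0.87 (SE 0.45, adjusted p = 0.762 in limma's test). Acsl1, the main synthetase of the heart, differed by -0.46 (SE 0.46) with overlap, and by -1.27 (SE 0.64) in its dimmer probe set, also with overlap. Acsl4, which prefers arachidonate, differed by 0.10 (SE 0.42), and Acsl6 was on every array at the floor of 4.55, which is set at percentile 20 of the signals.

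Carnitine shuttle. By their brightest probe sets, none of the 6 genes that pass acyl groups into mitochondria or set that passage was free of overlap. The dimmer probe set of Cpt1a, described below, was free of overlap. Among all named genes 17.2% were lower and 20.6% higher without overlap. In the brightest probe sets the differences of the 6 genes ran from -0.37 for Cpt1b to 0.51 for Crat, carnitine acetyltransferase. Cpt1b is the muscle form of carnitine palmitoyltransferase at the outer membrane. Mlycd, malonyl-CoA decarboxylase, which removes the inhibitor of that step, read 9.29 and 9.14 on the controls and 8.83 and 9.47 on fibronectin. The fibronectin arrays thus lay on either side of the controls, with a difference of -0.06 (SE 0.34, 95% interval -0.86 to 0.73). Cpt2, the inner-membrane transferase, differed by 0.05 (SE 0.55), and its controls lay as far apart as 8.64 and 7.02. Slc25a20, the carnitine-acylcarnitine translocase, differed by 0.01 (SE 0.38), with an interval from -0.87 to 0.90.

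Cpt1a, the liver-type form, which is also the form of the fetal heart, gave different values in its 2 probe sets. The brighter read 9.17 and 8.74 on the controls and 9.16 and 8.57 on fibronectin, a difference of -0.09 (SE 0.36). The dimmer read 8.62 and 8.63 on the controls and 7.18 and 6.57 on fibronectin, a 3.36-fold lower mean and a difference of -1.75 (SE 0.40, limma's Benjamini-Hochberg adjusted p = 0.575). The first pair of groups overlapped and the second did not. The 3' to 5' ratios of Gapdh were 6.02 and 3.52 on the same fibronectin arrays, against 1.64 and 1.15, and their part in the disagreement was not tested. The place of each probe set along its transcript was not analysed here.

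**Figure D2:**
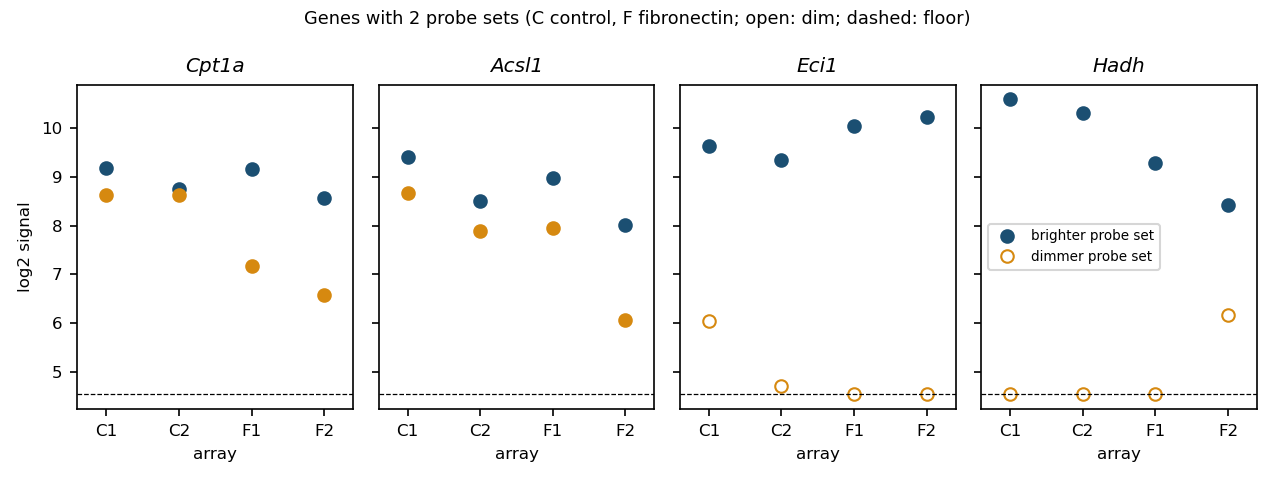
Log2 signal (vertical axis) on the 4 arrays (horizontal axis) for 4 genes with 2 probe sets, blue for the brighter and orange for the dimmer; open points are probe sets left out of the test as dim and the dashed line is the floor of 4.55. For Cpt1a the brighter probe set differed by -0.09 between the groups and the dimmer by -1.75.

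Acyl-CoA dehydrogenases. The dehydrogenases of the first oxidation step overlapped between the groups, apart from the short-chain enzyme. Acadm, the medium-chain dehydrogenase, read 10.03 and 9.23 on the controls and 10.31 and 9.23 on fibronectin. The long-chain enzyme gene Acadl read 10.12 and 9.20 on the controls and 10.34 and 8.96 on fibronectin. For both genes the arrays numbered 1 were high and those numbered 2 low in each group, and the groups differed by 0.14 (SE 0.44) for Acadm and by -0.0016 (SE 0.51) for Acadl. Acadvl, the very-long-chain enzyme, differed by -0.76 (SE 0.54), carried by 6.60 on fibronectin replicate 2 against 8.07 on fibronectin replicate 1, and the difference without fibronectin replicate 2 was -0.022. Acads, the short-chain enzyme, read 9.11 and 8.99 on the controls and 9.27 and 9.15 on fibronectin. Its groups did not overlap, but the difference was only 0.16 (SE 0.30). Ivd, which acts in leucine breakdown, differed by 0.23 (SE 0.37), and Acadsb, for short branched chains, was at the floor on 2 arrays.

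Hydration, second oxidation and thiolysis. By the brightest probe set of each gene, this step held the gene with the largest difference of the 33. Hadh, which encodes the mitochondrial dehydrogenase of medium- and short-chain hydroxyacyl-CoA, read 10.58 and 10.29 on the controls and 9.28 and 8.41 on fibronectin. Both fibronectin arrays lay below both controls by at least 1, and fibronectin replicate 2 was the lower. The mean was 10.43 ± 0.21 on the controls and 8.84 ± 0.61 on fibronectin (SD, n = 2 each), 3.01-fold lower, and the difference was -1.59 (SE 0.37, limma's Benjamini-Hochberg adjusted p = 0.575). Leaving out 1 array at a time gave -2.02 to -1.16, and without fibronectin replicate 1 limma's Benjamini-Hochberg adjusted p was 0.0354. That fit has 1 fibronectin array, which is assumed to vary like the 2 controls, the sole source of the gene's own spread. Over 15 alternative settings that adjusted p ran from 0.000316 to 1.00. A dimmer probe set of Hadh, not tested, was at the floor on 3 arrays and read 6.18 on fibronectin replicate 2.

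The trifunctional protein, which carries out the last 3 reactions on long chains, is built from subunits encoded by Hadha and Hadhb. Hadha read 10.31 and 9.81 on the controls and 9.75 and 9.27 on fibronectin. Its groups were separate by a narrow margin, and the difference was -0.55 (SE 0.33, adjusted p = 0.772 in limma's test). Hadhb read 11.21 and 10.70 on the controls and 11.02 and 11.07 on fibronectin, where both values lay between the controls, and differed by 0.09 (SE 0.28). Within each array, the log2 signal of Hadha minus that of Hadhb was -0.89 on both controls, -1.27 on fibronectin replicate 1 and -1.80 on fibronectin replicate 2. This within-array difference was thus lower by 0.64 on fibronectin without overlap (exact two-sided permutation p = 0.333, the smallest that 2 arrays against 2 can give).

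The remaining genes of these reactions were Acat1, Acaa2, Echs1 and Hsd17b10. Acat1, the thiolase of ketone bodies and isoleucine, read 9.78 and 9.88 on the controls and 8.74 and 9.69 on fibronectin. Its difference of -0.62 (SE 0.38) came mostly from fibronectin replicate 1 and was -0.15 without it. Echs1, the short-chain hydratase, differed by -0.67 (SE 0.67), with 6.64 on fibronectin replicate 2, and by 0.42 without that array. Acaa2, the mitochondrial thiolase, differed by -0.23 (SE 0.35), and Hsd17b10, a dehydrogenase of short branched chains, by 0.18 (SE 0.34), both with overlap.

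Promoter sequences from RefSeq, in the GRCr8 build, were matched by symbol for 34 of the 39 genes and covered 250 bases before to 50 after the start site. Those of Hadh and Etfdh are shown because these genes had the largest differences among those tested, by the brightest probe set of each gene. Hadhb is shown because its start site on chromosome 6, at 31907500, lies 301 bases from that of Hadha on the opposite strand, at 31907801, so that the 2 windows share 200 bases although the transcripts differed in their values. Eci1 is shown as a gene with higher values and Ucp3 as a gene with 2 copies of AGGTCA, the hexamer bound by PPAR and ERR receptors. Sequences run in the direction of transcription, and capitals mark AGGTCA and GGGCGG or their reverse complements TGACCT and CCGCCC.
Hadh (chr2:222504397-222504696, minus strand): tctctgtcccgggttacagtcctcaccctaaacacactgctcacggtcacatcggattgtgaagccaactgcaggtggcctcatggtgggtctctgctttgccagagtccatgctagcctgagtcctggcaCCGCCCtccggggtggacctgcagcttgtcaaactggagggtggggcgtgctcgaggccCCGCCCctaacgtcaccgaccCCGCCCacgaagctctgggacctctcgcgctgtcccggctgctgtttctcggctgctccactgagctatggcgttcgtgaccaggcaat
Etfdh (chr2:167060709-167061008, minus strand): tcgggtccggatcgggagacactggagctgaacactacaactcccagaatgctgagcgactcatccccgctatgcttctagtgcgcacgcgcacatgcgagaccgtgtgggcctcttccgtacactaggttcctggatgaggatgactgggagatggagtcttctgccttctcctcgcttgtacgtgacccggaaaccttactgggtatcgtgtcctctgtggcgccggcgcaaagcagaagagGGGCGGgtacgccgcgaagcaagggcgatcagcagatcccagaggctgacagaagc
Hadhb (chr6:31907451-31907750, minus strand): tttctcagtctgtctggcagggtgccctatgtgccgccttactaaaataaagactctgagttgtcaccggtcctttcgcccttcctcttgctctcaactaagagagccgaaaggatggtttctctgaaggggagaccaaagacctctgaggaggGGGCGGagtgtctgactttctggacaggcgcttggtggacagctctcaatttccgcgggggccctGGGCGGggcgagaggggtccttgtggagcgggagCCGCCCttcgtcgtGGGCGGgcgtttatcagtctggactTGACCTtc
Eci1 (chr10:13961000-13961299, plus strand): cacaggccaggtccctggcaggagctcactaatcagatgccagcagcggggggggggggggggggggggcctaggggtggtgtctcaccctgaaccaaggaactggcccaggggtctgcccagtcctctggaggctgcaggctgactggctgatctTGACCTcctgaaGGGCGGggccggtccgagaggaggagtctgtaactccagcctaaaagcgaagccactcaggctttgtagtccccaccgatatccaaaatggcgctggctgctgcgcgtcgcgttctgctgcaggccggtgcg
Ucp3 (chr1:164227660-164227959, plus strand): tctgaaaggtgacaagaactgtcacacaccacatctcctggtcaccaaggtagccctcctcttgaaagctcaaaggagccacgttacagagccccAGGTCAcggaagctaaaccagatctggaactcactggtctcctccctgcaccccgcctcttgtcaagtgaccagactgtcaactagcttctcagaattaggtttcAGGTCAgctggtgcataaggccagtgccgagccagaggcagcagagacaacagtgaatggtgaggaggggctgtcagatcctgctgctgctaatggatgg

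Searched on both strands, AGGTCA was found in 7 of the 34 promoters, or 20.6%, against 11.7% of the 5975 promoters of tested genes and 15.7% of all 27457 promoters. The 7 genes, Acadvl, Echs1, Eci1, Eci2, Hadhb, Hsd17b4 and Ucp3, had differences from -0.76 to 0.89, on both sides of 0. The direct repeat of the hexamer with any 1 base between its copies (DR1) and the extended form TCAAGGTCA, both of which contain AGGTCA, were found in 0 of the 34 and in 0% and 0.184% of the promoters of tested genes. GGGCGG, the core of the GC box, was in 70.6% of the 34 and 65.2% of those of tested genes, and CCAAT in 44.1% and 38.2%. These matches describe the letters in the window only.

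Unsaturated chains. Enzymes that move or remove double bonds so that oxidation can go on included genes with opposite differences. Eci1, the mitochondrial enoyl-CoA isomerase, read 9.62 and 9.34 on the controls and 10.04 and 10.22 on fibronectin. Both fibronectin arrays lay above both controls, and the mean was 1.57-fold higher, with a difference of 0.65 (SE 0.29, limma's Benjamini-Hochberg adjusted p = 0.762). A dimmer probe set of Eci1, not tested, read 6.06 and 4.72 on the controls and was at the floor on fibronectin replicates 1 and 2. Ech1, the dienoyl-CoA isomerase, read 10.45 and 9.97 on the controls and 9.37 and 9.48 on fibronectin. Here both fibronectin arrays lay below both controls, 1.72-fold lower, with a difference of -0.79 (SE 0.31, adjusted p = 0.753 in limma's test). Eci2, the isomerase shared with peroxisomes, differed by -0.49 (SE 0.41), and Decr1, the dienoyl-CoA reductase, by -0.32 (SE 0.34), both with overlap.

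Electron transfer. The 3 genes that pass electrons from the acyl-CoA dehydrogenases to ubiquinone were all free of overlap, in different directions. Of them 2 were lower and 1 higher, where 17.2% of all named genes were lower and 20.6% higher without overlap. Electron transfer flavoprotein is a dimer of an alpha chain, encoded by Etfa, and a beta chain, encoded by Etfb. Etfa read 9.81 and 9.57 on the controls and 9.01 and 9.44 on fibronectin, a difference of -0.46 (SE 0.32). Etfb read 9.45 and 9.66 on the controls and 10.02 and 9.92 on fibronectin, a difference of 0.42 (SE 0.29). Both chains of the dimer thus had values apart from the controls, one below and one above. Within each array, Etfa minus Etfb was 0.36 and -0.09 on the controls and -1.004 and -0.48 on fibronectin, lower by 0.88 without overlap (exact two-sided permutation p = 0.333, the smallest possible here). Other pairs were also taken. Etfdh minus Etfb (-1.66) and Hadh minus Hadhb (-1.68) were lower on fibronectin without overlap, and Cpt1a minus Cpt1b (0.28) overlapped. The share of arbitrary gene pairs without overlap was not computed.

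Etfdh, the oxidoreductase that hands these electrons to ubiquinone, had the second largest difference of the 33 genes by their brightest probe sets. It read 8.43 and 8.25 on the controls and 7.19 and 7.02 on fibronectin. The fibronectin arrays were close to each other and both lay more than 1 below the controls. The means were 8.34 ± 0.13 and 7.10 ± 0.12 (SD, n = 2 each), 2.36-fold lower, with a difference of -1.24 (SE 0.38, limma's Benjamini-Hochberg adjusted p = 0.718). Leaving out 1 array at a time gave -1.33 to -1.15. By the brightest probe set of each gene, Hadh and Etfdh were lower by at least 1 without overlap, 2 genes or 6.06% of the 33 tested. The share was 4.04% of all named genes, and 0 of the 33 were higher by that much, against 3.55%. The dimmer probe set of Cpt1a, also tested, differed by -1.75 without overlap and is not in this count.

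**Figure D3:**
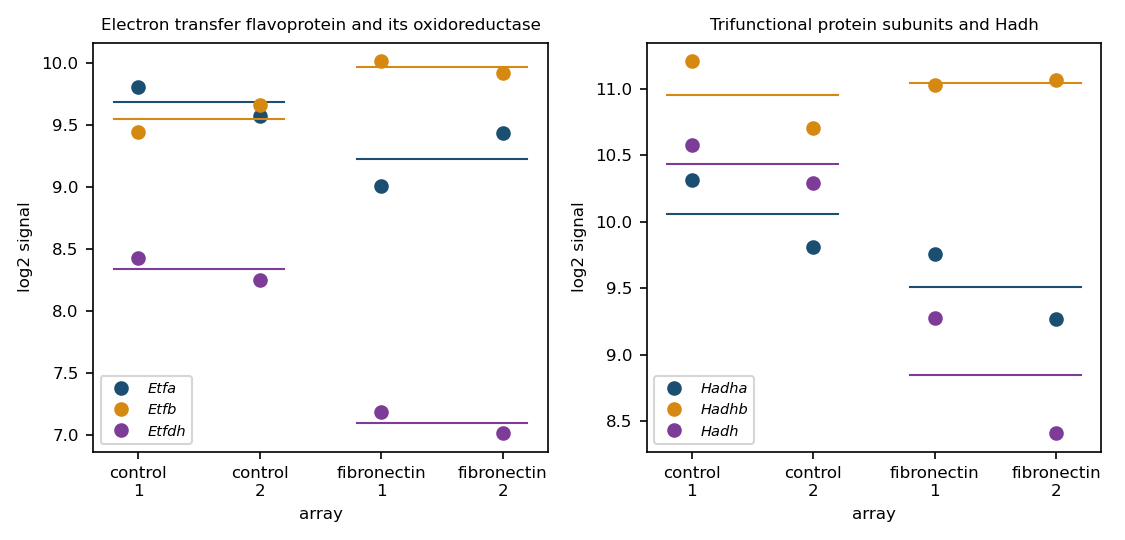
Log2 signal (vertical axis) on the 4 arrays (horizontal axis) for electron transfer flavoprotein and its oxidoreductase, and for the trifunctional protein subunits and Hadh; points are arrays and lines are group means. Etfb and Hadhb lie at or above their control means on fibronectin, whereas Etfa, Etfdh, Hadha and Hadh lie below.

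Peroxisomal oxidation. Of the genes assigned to the peroxisomal step, Hsd17b4, the multifunctional enzyme of hydration and dehydrogenation, was the only one tested. It read 8.90 and 8.91 on the controls and 8.76 and 8.68 on fibronectin, without overlap and with a difference of -0.18 (SE 0.31). Ehhadh, a bifunctional enzyme best known from liver, was at the floor on all 4 arrays. Another 18 peroxisomal genes were listed beside the members, and 12 of the 15 found were tested. After Benjamini-Hochberg adjustment of limma's p-values 0 passed, 0 had an unadjusted p under 0.05, and 3 were higher and 1 lower without overlap (20.6% and 17.2% of all named genes), with a median difference of -0.02. Acot8, a peroxisomal thioesterase, differed by 1.12 (SE 0.67), Hacl1, a lyase of branched chains, by 0.70 (SE 0.60), and Pecr, an enoyl-CoA reductase, by -0.32 (SE 0.36).

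Overflow and fuel choice. Pdk4, the kinase that shuts pyruvate dehydrogenase when fatty acids are burned, read 6.78 and 6.76 on the controls and did not exceed the floor on either fibronectin array. Its mean was at least 4.66-fold lower on fibronectin, but the probe set was too dim overall to be tested. Pdk2, a related kinase, differed by 0.08 (SE 0.44) with overlap, and its other probe set was at the floor throughout. Ucp2, a mitochondrial carrier of the uncoupling protein family, read 9.92 and 9.08 on the controls and 9.50 and 8.65 on fibronectin. The groups overlapped, and the difference was -0.43 (SE 0.42). Ucp3, the muscle member of that family, had the largest positive difference, 0.89 (SE 0.60), but its values of 6.26 and 7.05 on the controls overlapped with 6.84 and 8.25 on fibronectin. Acot2, a mitochondrial thioesterase, was above the floor on 1 array only.

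**Figure D4:**
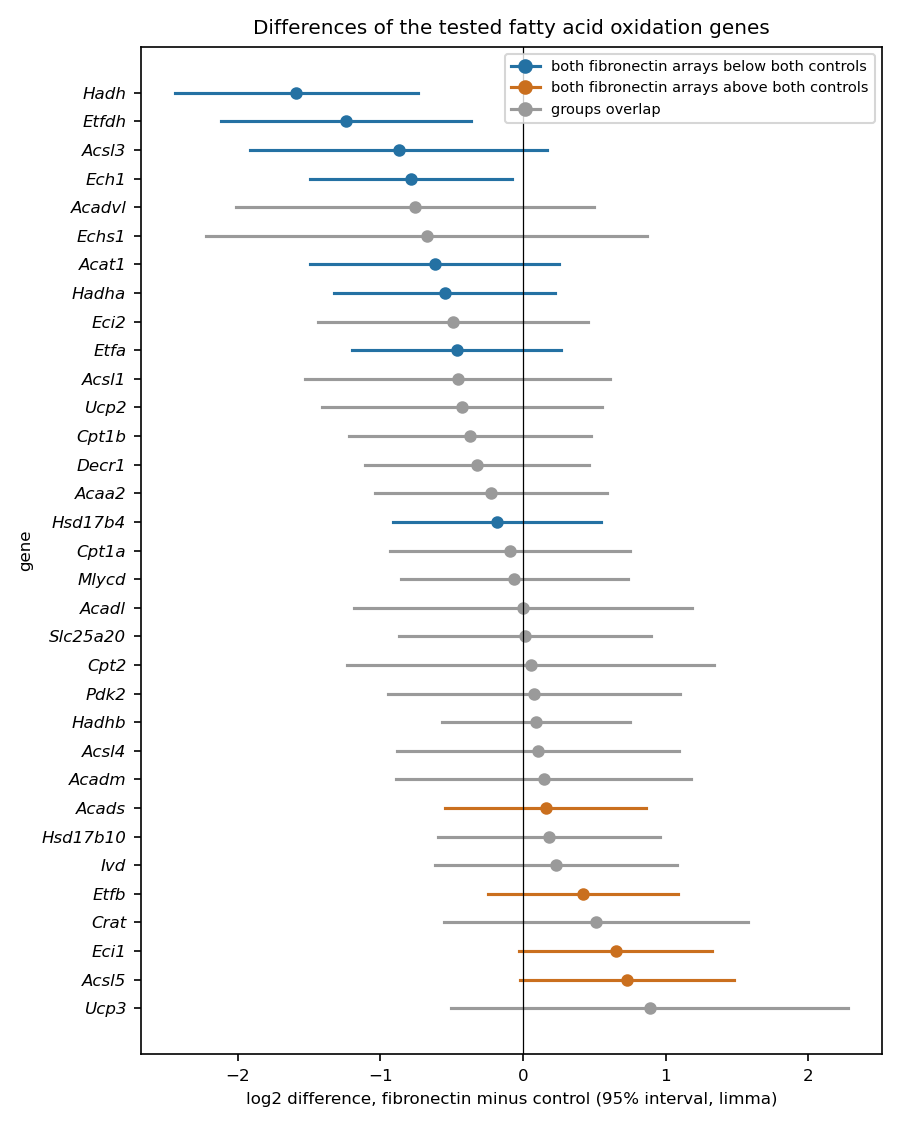
Log2 difference, fibronectin minus control, with limma's 95% interval (horizontal axis) for the 33 tested genes in order of size (vertical axis); colours mark whether the groups were free of overlap. For the brightest probe set of each gene, shown here, the intervals of Hadh, Etfdh and Ech1 lie below 0 before adjustment, and after it no gene passed.

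Neighbouring genes of the pathway did not pass either. Of 27 listed genes of other mitochondrial acyl-CoA handling, mostly branched-chain amino acid breakdown, 23 were found and 18 tested. After Benjamini-Hochberg adjustment of limma's p-values 0 passed, 2 had an unadjusted p under 0.05 (5.67% of all named genes), and 7 were higher and 6 lower without overlap (20.6% and 17.2% of all named genes), with a median of 0.13. Aldh6a1, a dehydrogenase of valine breakdown, differed by -1.09 (SE 0.39). Acbd3, an acyl-CoA-binding domain protein of the Golgi, differed by 0.89 (SE 0.45) and Bckdha, a subunit of the branched-chain ketoacid dehydrogenase, by 0.78 (SE 0.53). Of 5 genes of ketone body metabolism 1 was tested, Oxct1, the transferase that lets heart use ketone bodies, which differed by 0.13 (SE 0.31) with overlap.

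Of 27 listed regulators 22 were found and 16 tested. Ppara, the receptor best known for switching on fatty acid oxidation, and its coactivator gene Ppargc1a were at the floor on all 4 arrays. After Benjamini-Hochberg adjustment of limma's p-values 0 of the 16 passed, 1 had an unadjusted p under 0.05 (5.67% of all named genes), and 2 were higher and 3 lower without overlap (20.6% and 17.2% of all named genes), with a median of 0.05. Rxrg, a retinoid X receptor that pairs with PPARs, read 7.996 and 9.27 on the controls and 6.78 and 7.74 on fibronectin, a difference of -1.37 (SE 0.54). Esrra, which encodes the orphan receptor ERR alpha, read 7.02 and 7.23 on the controls and 7.74 and 8.14 on fibronectin, a difference of 0.81 (SE 0.40). Prkag1, a regulatory subunit of AMP-activated kinase, differed by -0.65 (SE 0.36). The groups did not overlap for these 3 genes.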

How the data were processed

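The deposited table held 1 linear signal intensity per probe set and array, from 2 control and 2 fibronectin arrays. The sources used here do not give the steps by which the authors made these intensities. Trimmed means of the arrays differed by more than 10%, so the 15875 probe sets were quantile normalized. Signals under 23.4 (percentile 20) were set to that floor before conversion to log2. After 9 control probe sets were left out, the 40% with the lowest mean were dropped as dim. The other 9520 entered lmFit and trended eBayes (limma 3.58.1, R 4.3.3), two-sided, with Benjamini-Hochberg adjustment and a threshold of 0.05. The test was run on simulated data with independent noise drawn at limma's own variances. Such data hold no effect shared across an array, so this check does not cover the differences between these arrays. The platform annotation, which can be old, gave 1 symbol to 12783 probe sets, several to 312 and none to 2771, and probe sets with several named no gene. SE is limma's moderated standard error, and the number of arrays limits the precision.

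Members and lists were chosen with earlier results of these data known. Every member is named. Values on all arrays are given for the brightest of each step, and for up to 12 without overlap, and for a few more chosen after their values were seen. Up to 3 tested genes without overlap, by size of difference, were named per pathway or marker list. S100a4, Cidea, Plin1 and Fabp4 were added after their values were seen. Alternatives covered scaling, filter, floor, offset, variance model, threshold, replicate block, probe set choice and leaving out each array.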

Additional observations from a re-analysis of the deposited data

How the results depend on the processing

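No gene of the pathway passed limma's Benjamini-Hochberg threshold on the deposited scale, after a median shift, with other filters, without a floor, with an offset of 50, with other variance models, at a threshold of 0.10 or with probe sets of a gene averaged. Of the 38 genes 17 changed sign under at least 1 setting or with an array left out. With the replicate number as a block, 234 probe sets and 1 gene of the pathway, Hadh (adjusted p = 0.000316), passed. The labels do not say that the numbers pair the samples, so these calls rest on a number only. The deviations of same-numbered arrays correlated at 0.27, the same value for both numbers with 2 arrays a group. Whether the numbers mark pairs was not tested. On the deposited scale 5 genes were lower without overlap (10.5% of all named genes). With 1 array left out, 0 to 341 probe sets and 0 to 1 genes of the pathway passed, 6 to 10 genes were higher and 8 to 19 lower without overlap (32.5% to 40.8% of all named genes higher and 27.5% to 39.3% lower), and the median ran from -0.46 to 0.02. The difference of Mlycd turned sign on the deposited scale (0.048) and after a median shift (0.00118), the difference of Acadl in these settings (0.10 and 0.053) and with an offset (0.00368), and the difference of Acot2 without a floor (-0.31). Signs also turned with 1 array left out, where the difference ran from -0.94 to 0.020 for Acsl1, -0.17 to 0.38 for Acsl4, -0.39 to 0.20 for Cpt1a, -0.77 to 0.029 for Cpt1b, -0.76 to 0.87 for Cpt2, -0.21 to 0.24 for Slc25a20, -0.078 to 1.10 for Crat, -0.38 to 0.26 for Mlycd, -0.69 to 0.69 for Acadl, -0.40 to 0.68 for Acadm, -0.30 to 0.71 for Acadsb, -1.77 to 0.42 for Echs1, -0.16 to 0.34 for Hadhb, -0.58 to 0.13 for Acaa2, -0.20 to 0.57 for Hsd17b10 and -0.51 to 0.67 for Pdk2. The cause was not tested. Signal over background limits Acsl6, Ehhadh, Acot2, Acadsb and Pdk4.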

Other observations

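Among genes listed beside the pathway that were too dim to be tested, Cpt1c and Rxra had the largest differences without overlap, and they were chosen here after their values were seen. Cpt1c, the brain form of carnitine palmitoyltransferase, was at the floor of 4.55 on control replicate 1, read 4.76 on control replicate 2, and read 6.61 and 7.33 on fibronectin. Rxra, a retinoid X receptor, was at the floor on control replicate 1, read 5.21 on control replicate 2, and read 6.29 and 7.65 on fibronectin. Neither was tested, and with a control at the floor the size of these differences is not measured.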
